A study of Drosophila melanogaster with 3 samples.

Results

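The genes of the proteasome, the complex that degrades ubiquitin-tagged proteins, were examined for binding sites of su(Hw), a zinc finger protein of chromatin insulators, in Drosophila melanogaster embryos. They were taken as all protein-coding genes whose symbol starts with Prosalpha, Prosbeta, Rpn or Rpt and a number, which gave 48 of 13968 protein-coding genes of the annotation. The core particle accounted for 25 of them and the regulatory particle for 23. By the form of the symbol, 32 are standard subunits and 16 are copies whose name carries a T or an R after the subunit number, such as Prosalpha3T or Rpt3R. RefSeq describes 4 of the copies as testis-specific and the other 12 as related to the standard subunit.

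In the core particle, rings of alpha and beta subunits are stacked around a chamber in which Prosbeta1, Prosbeta2 and Prosbeta5 carry the proteolytic sites. The regulatory particle caps the core: its base holds the Rpt ATPases, which unfold the substrate and thread it into the chamber, and ubiquitin receptors such as Rpn10 and Rpn13, and its lid holds the deubiquitinase Rpn11 and structural subunits. Every cell needs the complex, and in flies many of the duplicated copies are known for expression in the male germ line.

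All 3 samples were biological replicates of 1 group. They came from the transgenic strain SuHw-GFP, in which su(Hw) is fused at its C terminus to eGFP, as whole embryos aged 0 to 24 hours with males and females pooled. Chromatin was sonicated to fragments of 200 to 800 bp and precipitated with an antibody against GFP, whereas su(Hw) is given as the antibody's target in another label. No untagged group, other stage or other genotype was analysed here, the labels do not say whether the strain keeps its own su(Hw), and a whole embryo mixes all of its cell types. Each peak has a summit, its highest point, and the authors' own signal value. The authors' list of reproducible peaks, cut by the irreproducible discovery rate (IDR) and called thresholded here, held 6127 peaks, which were the 6127 strongest of their pooled list of 30000. A rank counts peaks from the strongest signal down, and read depth is unknown. The labelled target was checked by sequence: the 12-base su(Hw) consensus, 1 mismatch allowed, was found within 100 bp of 21.6% of all thresholded summits and 9.28% of the 20682 unthresholded pooled summits that lay over 1000 bp from any of these.

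Of the 48 proteasome genes, 17 had a thresholded summit in the gene or up to 1000 bp away, 35.4% (exact binomial 95% interval 22.2 to 50.5), beside 37.1% of all protein-coding genes and 32.9% of those in the members' length range of 881 to 4500 bp. The share of the whole family was therefore near the background, and the counts of its subgroups were spread around it. All 17 genes were standard subunits, so that 53.1% of these (34.7 to 70.9) had a summit, against 0 of the 16 copies (exact interval 0 to 20.6). By the limit of 3 counts over the total, that count of 0 allows a share of up to 18.8%. Within the standard subunits, 13 of 18 regulatory particle genes had one (72.2%, 46.5 to 90.3) and 4 of 14 core particle genes (28.6%, 8.39 to 58.1). The intervals of the particles overlap, no test of their difference was made, and all intervals here cover counting error only. Base and lid had 7 of 10 and 6 of 8 genes with a summit, and the alpha and beta rings 2 of 7 each. Among the regulatory genes, 10 of 12 standard Rpn genes had a summit and 3 of 6 Rpt genes. With all copies counted, the regulatory particle stood at 13 of 23 (56.5%, 34.5 to 76.8) and the core particle at 4 of 25 (16%, 4.54 to 36.1). At least 2 summits lay at 6 members, all regulatory (12.5%), beside 13% of all protein-coding genes and 8.07% of those in the length range.

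**Figure D1:**
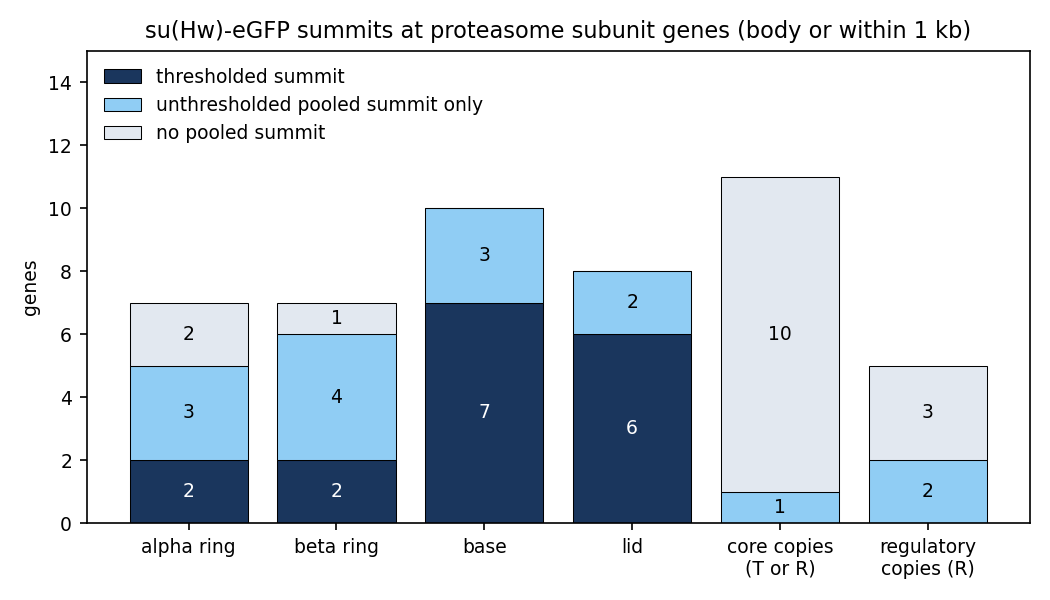
Number of genes (vertical axis) in each subgroup of proteasome genes, split by whether a thresholded summit, only an unthresholded summit of the pooled list, or no pooled summit lay in the gene body or within 1000 bp. Thresholded summits were at 7 base and 6 lid genes, at 2 genes of each core ring, and at none of the 16 copies.

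Several properties moved with these subgroups. A start of another protein-coding gene lay inside the gene or within 1000 bp at 27 of the 32 standard subunits (84.4%). The same held for 5 of the 16 copies (31.2%), beside 62.2% of all protein-coding genes and 63% of those in the length range. Over all protein-coding genes, a thresholded summit was at 45.9% of those with such a neighbouring start and at 22.7% of those without. Among members with no neighbouring start, 3 of 5 standard subunits and 0 of 11 copies had a summit. Among members with one, the counts were 14 of 27 and 0 of 5. Median gene length was 1390 bp for standard subunits and 1282 bp for copies, and it was 1201 bp for standard core and 1762 bp for standard regulatory genes. The part that length played in the difference between the particles was not tested.

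The count of 17 depended on how strictly the replicates were read. Of the 17 genes, 8 had a summit that was top-ranked, meaning matched within 200 bp by one of the 6127 strongest peaks, in all 3 replicates. That is 16.7% of the 48 members and 25% of the 32 standard subunits, beside 28.6% of all protein-coding genes under the same filter, so the standard subunits were no longer above the background. With top-ranked peaks asked of only 2 replicates, 10 members (20.8%) had one without replicate 1, 11 (22.9%) without replicate 2 and 10 (20.8%) without replicate 3. The standard subunits then stood at 31.2%, 34.4% and 31.2%, close to the 30.8%, 31.1% and 30.3% of all protein-coding genes. Their 53.1% beside 37.1% thus did not hold with these filters. Standard regulatory genes had 7 of 18 (38.9%) and standard core genes 1 of 14 (7.14%) with all 3 replicates asked, and the copies stood at 0 of 16 under each filter.

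The strongest site of the family lay at Rpn13, which encodes a ubiquitin receptor of the base. Its peak spanned 13960110 to 13960845 on 2R (dm6), with the summit 112 bp upstream of the Rpn13 start, between this gene and CtsL1. It had a pooled signal of 5318 and rank 119, and ranks of 123, 134 and 115 in replicates 1, 2 and 3. The signals there were 1316, 1490 and 2562, each on its own list's scale. All 3 replicates thus placed it among their strongest peaks, and the next strongest member site had rank 1014. A second Rpn13 summit, rank 5159, lay 369 bp past the 3′ end and 87 bp from a start of AGO1. Its replicate ranks of 5167, 2323 and 12605 were far apart, and replicate 3 did not hold it among its top-ranked peaks.

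In the lid, Rpn5, a scaffold subunit, had 3 thresholded summits, the most of any member. The strongest, with a pooled signal of 999 and rank 1014, lay 188 bp past the 3′ end of Rpn5 and 122 bp from the start of its neighbour Hpf1, at 5791591 to 5791920 on 3R. Its ranks were 851, 1233 and 1039 in replicates 1, 2 and 3. The others, ranks 1791 and 2197, lay 311 and 107 bp upstream of Rpn5, in the promoter region it shares with the histone acetyltransferase gene Hat1, whose starts were 108 and 2 bp away. All 3 summits were top-ranked in all 3 replicates, although both upstream summits matched a single peak in replicate 3.

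Rpn3, another lid subunit, had a summit 23 bp downstream of its start, with rank 2125 and ranks of 1812, 1939 and 2835 in the replicates. Its second summit, rank 5761, lay past the 3′ end and 87 bp from the start of CG10492. At Rpn11, the deubiquitinase, the summits of rank 2615 and 4099 lay 180 and 382 bp upstream, both in the promoter windows of Rpn11 and of qtc. The stronger one ranked 2509, 2220 and 3342, and replicates 2 and 3 held 1 peak for both. These 2 genes, like Rpn5, had their strongest summit top-ranked in all 3 replicates.

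The Rpn6 summit, rank 2715, lay in an intron of that gene, 102 bp upstream of its nearest annotated start, and ranked 3043, 2077 and 3765. The other lid sites were weaker. At Rpn12 the summit, rank 4057, was 198 bp past the 3′ end and 53 bp from the start of UQCR-C2, a gene of the mitochondrial respiratory chain, with ranks of 3616, 8101 and 4208. At Rpn9 it was in an intron, 225 bp downstream of the Rpn9 start, with rank 4516 and ranks of 9160, 5534 and 3736. The replicates thus disagreed on whether these 2 sites were among the 6127 strongest: replicate 2 left out the first and replicate 1 the second.

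In the base, Rpt1, one of the ATPases, had the only summits of the family in a coding exon. They had ranks 1168 and 3978 and lay 746 and 547 bp downstream of the start, outside every protein-coding promoter window (1000 bp upstream to 100 bp downstream of a transcript start). In each replicate both matched 1 peak, with ranks of 1300, 1024 and 1178, so they count as 1 site in the replicates. The Rpn2 summits, at a large scaffold subunit, had ranks 3379 and 4747. The stronger lay 705 bp past the 3′ end and 162 bp from a start of rdog, with ranks of 3597, 5096 and 2344. The weaker was 244 bp upstream of Rpn2 and 14 bp from a start of Slbp, which encodes the histone mRNA stem-loop binding protein.

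The remaining base genes had single summits near the edge of the thresholded list. At Rpn10, a ubiquitin receptor, the summit was 17 bp upstream of the start, with rank 5174 and replicate ranks of 5194, 3969 and 7380. That of the ATPase gene Rpt3 was 196 bp upstream, in a promoter region shared with CG11122, with rank 5420 and ranks of 5068, 8566 and 3946. At Rpn1, a scaffold subunit that binds shuttling ubiquitin receptors, it was 80 bp upstream, with rank 5860 and ranks of 5336, 4579 and 8370. The Rpt2 summit, 17 bp upstream of its nearest annotated start, was the weakest thresholded one of the family, at rank 6040, and ranks of 7313 and 5567 in replicates 2 and 3. Replicate 1 had no peak within 200 bp of it. For none of these 4 genes did all 3 replicates hold the site among their strongest 6127.

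Among the core genes, Prosbeta5, which carries the chymotrypsin-like site, had the strongest summit, with a pooled signal of 598 and rank 1829. It lay 18 bp upstream of the start, on 2R at 10819698 to 10820221, and ranked 1867, 1423 and 2609 in replicates 1, 2 and 3. It was the only core summit that was top-ranked in all 3. Prosbeta1, which carries the caspase-like site, had its summit 114 bp upstream, 7 bp from the start of the divergent gene Rrp42, with rank 3180 and ranks of 6584, 2457 and 3028. The third proteolytic subunit gene, Prosbeta2, had no summit of any strength.

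The alpha ring genes with a summit were at the edge of the list. Prosalpha5 had one 9 bp downstream of its start, with rank 5762 and ranks of 5489, 7866 and 6247. At Prosalpha6 it was 196 bp upstream of the start, in the 5′ UTR of the divergent gene Npc1a, with rank 5954 and ranks of 4360, 7951 and 5982. Replicate 2 held neither of them among its top-ranked peaks, and replicate 3 only that of Prosalpha6.

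**Figure D2:**
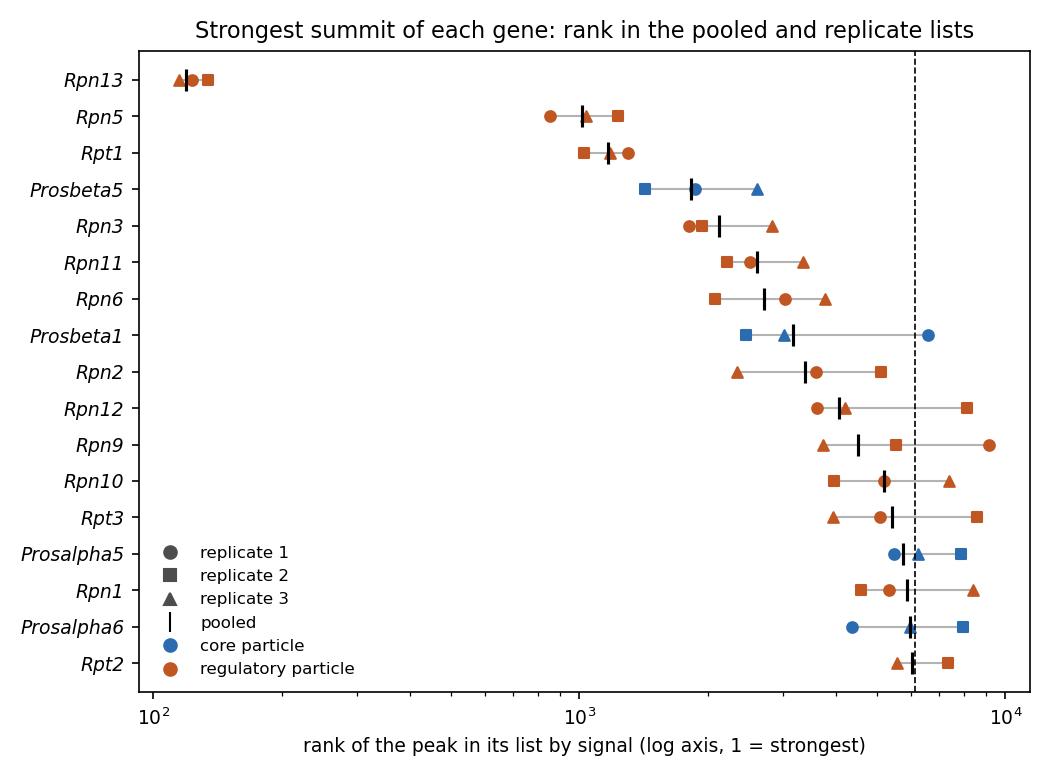
Rank by signal (horizontal log axis, 1 is the strongest) of the strongest thresholded summit of each of the 17 genes in the 3 replicate lists (symbols) and in the pooled list (vertical tick), with the dashed line at rank 6127. Rpn13 stands apart from the rest, and 8 of the genes have all replicates to the left of the line.

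Together the 17 genes had 24 summits, none shared between members, of which 4 were at core and 20 at regulatory genes. Their median pooled rank was 4018 and their median signal 329, beside 3064 and 405 over all thresholded summits. In the replicates, 12 of the 24 were top-ranked in all 3 (50%, 29.1 to 70.9), beside 69.3% of all thresholded summits, and 23 of 24 had a peak in all 3 whole lists of 30000, beside 97.2%. The exception was Rpt2. The highest q-value score of the list was shared by 15 of the 24, beside 77.2%, and 9 of the 24 were among its strongest 3063 peaks, beside 50%. The highest replicate rank of a summit was a median of 1.81 times its lowest, with a range of 1.17 to 5.43 over the 23, beside a median of 1.51 over all thresholded summits.

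The summits lay at gene starts, though often not at the start of the proteasome gene. Of the 24, 21 were within 200 bp of a protein-coding transcript start (87.5%, 67.6 to 97.3), beside 34.3% of all thresholded summits. The median distance was 87 bp beside 601 bp. Part of this closeness is fixed by the rule, since a member summit must lie in a member gene or within 1000 bp of it. Members are short, with a median of 1382 bp beside 2164 bp for all protein-coding genes, and all thresholded summits were not so limited. The same share for summits at other genes of like length was not computed. The nearest start belonged to the member in 12 cases and to another gene in the other 12. With each summit given only to the gene of its nearest start, 10 members kept one (20.8%), beside 24.2% of all protein-coding genes. A summit lay in the member's own promoter window at 15 of the 48 genes (31.2%, 18.7 to 46.3), beside 26.4% of all protein-coding genes and 25.8% of those in the length range, and these were 11 regulatory and 4 core genes. The exceptions were Rpt1 and Rpn12. Promoter windows of at least 2 genes held 14 of the 24 summits (58.3%, 36.6 to 77.9), beside 20.9% of all thresholded summits. Of the 22 in any promoter window this was 63.6%, beside 41.1%. The summits were upstream of the member in 12 cases, in its body in 7 and past its 3′ end in 5, so where a promoter is shared the list does not say which gene a peak belongs to.

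**Figure D3:**
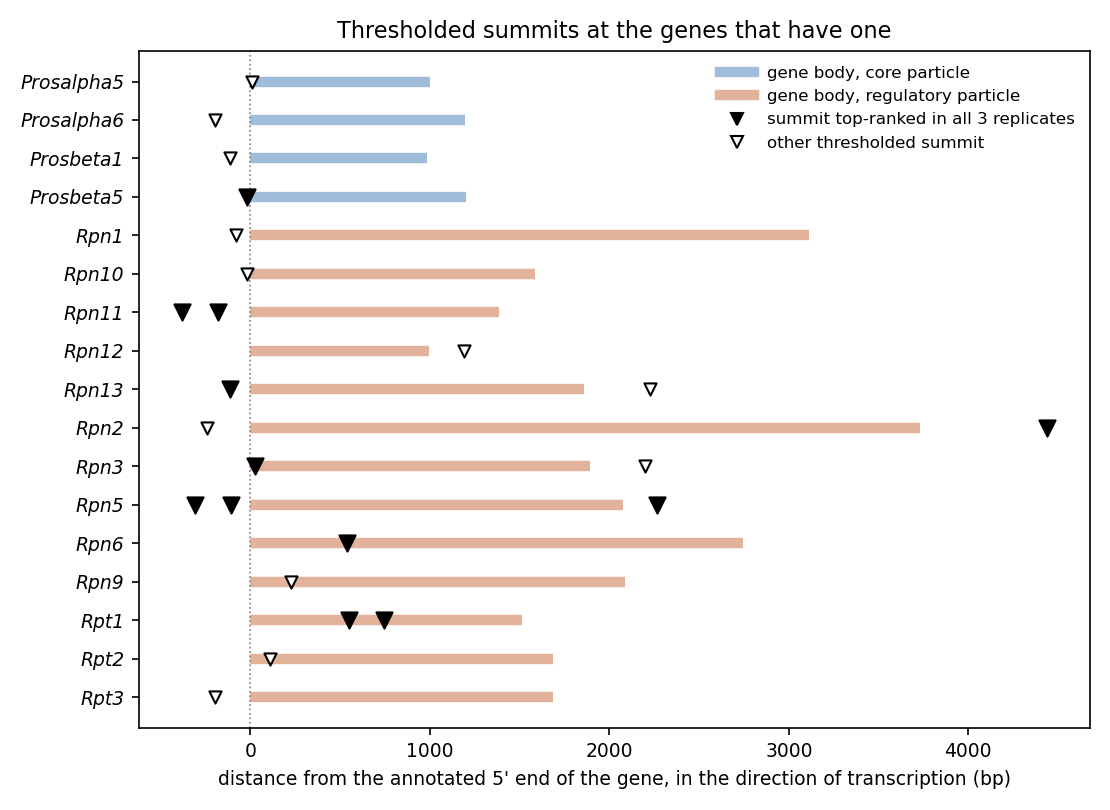
Position of each thresholded summit (triangles) along the 17 genes that had one, in bp from the annotated 5′ end in the direction of transcription, with the gene body as a bar. Filled triangles mark summits top-ranked in all 3 replicates; of the 24 summits, 12 sit upstream of the 5′ end, 7 in the gene body (those of Rpt1, Rpn6, Rpn9, Rpn3, Prosalpha5 and Rpt2) and 5 past the 3′ end.

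The su(Hw) consensus was found at 1 of these sites. With 1 mismatch allowed, 1 of the 24 summits had it within 100 bp (4.17%, 0.105 to 21.1), beside 21.6% of all thresholded and 9.28% of the distant unthresholded summits. Without a mismatch none did, beside 7.05% and 1.74%. The exact interval for 0 of 24 is 0 to 14.2%, and the limit of 3 counts over the total is 12.5%. The match was at Prosbeta5, with its centre 42.5 bp from the summit, and its mismatch lay within the core sequence TGCATA. Over all 3119 thresholded summits in a promoter window the share was 11.5%, beside 1 of 22 for the members. The core sequence TGCATA was near 1 summit, that of Rpn13, beside 23.5% of all thresholded and 15.1% of distant unthresholded summits.

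Other sequences were searched on both strands in the same windows. A pair of CGATA within 40 bp of each other, which the insulator protein BEAF-32 is known to bind, was at 6 of the 24 summits (25%, 9.77 to 46.7), beside 8.86% of all thresholded and 4.06% of distant unthresholded summits. TATCGATA, the element bound by the replication-related factor DREF, was at 4 (16.7%, 4.74 to 37.4), beside 4.18% and 1.52%, and reads CGATA on both strands, so each also counts as a pair. GGTCACAC, within motif 1 of housekeeping core promoters, was at 3 (12.5%, 2.66 to 32.4), beside 2.73% and 1.39%. TGACNNNGC, the element bound by Cnc with its Maf partner, and GAGAGAG, bound by the GAGA factor, were at 1 summit each, at Rpn1 and at the weaker Rpn13 site. The first was at 5.17% of all thresholded and 5.81% of distant unthresholded summits, and the second at 4.16% and 3.68%. Promoter windows held 22 of the 24 member summits and 3119 of all 6127 thresholded summits. These shares therefore set mostly promoter sites beside a mixed list, and the share over promoter summits alone was not computed for these sequences. They are matches of letters in a window and do not show which protein was bound.

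The windows below are 50 bp to each side of a summit (dm6, read 5′ to 3′ on the strand of the proteasome gene, with CGATA on either strand in capitals). They show a site with tandem CGATA sequences beside sites with few or no matches. They are the distal Rpn11 site at chr2L:5060122-5060222 (minus strand, rank 4099), the proximal one at chr2L:5059920-5060020 (minus strand, rank 2615), the 3′ site of Rpn5 at chr3R:5791707-5791807 (plus strand, rank 1014), its upstream site at chr3R:5789132-5789232 (plus strand, rank 1791), and the Rpn1 and Rpt3 sites at chr3L:19914921-19915021 and chrX:11124855-11124955 (both plus strand).
Rpn11 distal: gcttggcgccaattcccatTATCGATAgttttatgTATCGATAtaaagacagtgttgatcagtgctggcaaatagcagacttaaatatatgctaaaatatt
Rpn11 proximal: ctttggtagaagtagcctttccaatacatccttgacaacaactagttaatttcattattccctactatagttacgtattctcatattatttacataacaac
Rpn5 3′ site: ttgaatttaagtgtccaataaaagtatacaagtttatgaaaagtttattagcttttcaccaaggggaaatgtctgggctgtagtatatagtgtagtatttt
Rpn5 upstream: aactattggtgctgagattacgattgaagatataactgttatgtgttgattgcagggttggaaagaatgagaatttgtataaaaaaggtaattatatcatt
Rpn1: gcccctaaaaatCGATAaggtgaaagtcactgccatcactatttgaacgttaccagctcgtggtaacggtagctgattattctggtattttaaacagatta
Rpt3: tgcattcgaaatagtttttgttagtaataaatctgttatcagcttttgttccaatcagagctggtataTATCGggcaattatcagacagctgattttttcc

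The promoters themselves, from 250 bp upstream to 50 bp downstream of each gene start, set the standard subunits beside their copies. CGATA pairs were in 19 of 32 standard promoters (59.4%, 40.6 to 76.3) and 1 of 16 promoters of copies, beside 19.3% of all protein-coding genes. TATCGATA was in 12 of 32 (37.5%, 21.1 to 56.3) and in none of the 16, beside 9.36%. Each TATCGATA also counts as a pair here, so these 12 promoters are among the 19. GGTCACAC was in 5 of 32 and none of the 16, beside 7.69%, and TGACNNNGC in 5 of 32 and 1 of 16, beside 8.62%. TGCATA was in 3 of 32 and 4 of 16, beside 15.4%, and GAGAGAG in none of 32 and 2 of 16, beside 5.86%. Among the standard subunits the pairs were in 8 of 14 core and 11 of 18 regulatory promoters, and in 11 of the 17 with a thresholded summit and 8 of the 15 without one. Over all protein-coding genes the corresponding shares were 25.4% and 15.8%.

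**Figure D4:**
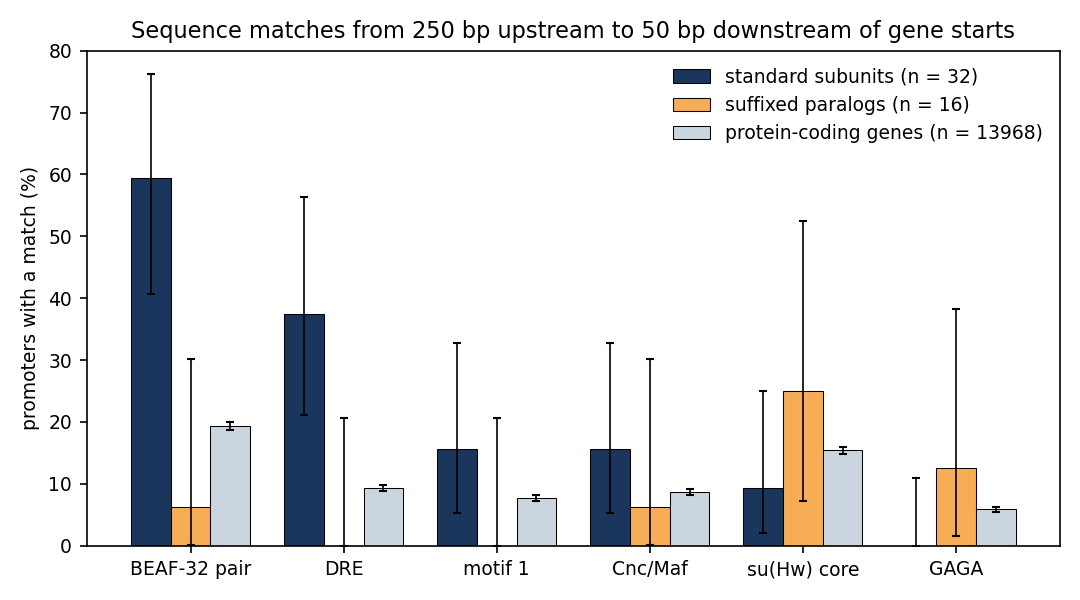
Share of promoters (vertical axis, percent, with exact 95% intervals) that hold each sequence among 32 standard subunits, 16 suffixed paralogs (the copies) and 13968 protein-coding genes; from left to right the sequences are CGATA pairs, TATCGATA, GGTCACAC, TGACNNNGC, TGCATA and GAGAGAG. The standard subunits reach 59.4% for CGATA pairs and 37.5% for TATCGATA, while the copies are at 6.25% and 0. Each TATCGATA also counts as a CGATA pair, so the first 2 sequences overlap.

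Stretches of 30 bases around TATCGATA (capitals) are shown for Rpn3, with a thresholded summit, and for Prosbeta2, Rpn7 and Rpt5, without one, to set the same letters side by side. The stretch of Rpn3 lies just past the downstream edge of the promoter window, near its summit, and the other 3 lie inside their windows. They are at chr2L:19051855-19051884 (plus strand), chr3L:14999930-14999959 (plus), chr3R:22462033-22462062 (minus) and chr3R:23752819-23752848 (plus).
Rpn3: accgtaaaacgTATCGATAaattgaaacgt
Prosbeta2: ccatgaatataTATCGATAcaatatcgatt
Rpn7: gcggtataattTATCGATAattttggggtc
Rpt5: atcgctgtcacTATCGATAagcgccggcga

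Weaker sites were taken from the pooled list, at over 200 bp from every thresholded summit. They were the only summits of 15 members (31.2%), beside 28.5% of all protein-coding genes and 30.4% of those in the length range, and 12 of the 15 were standard subunits. Any summit, thresholded or not, was at 29 of 32 standard subunits (90.6%, 75 to 98) and 3 of 16 copies (18.8%, 4.05 to 45.6), beside 65.6% of all protein-coding genes and 63.3% of those in the length range. All 18 standard regulatory genes had one. The copies with one were Prosbeta2R2, Rpt3R and Rpt6R, and the summits of the first 2 lay nearest to starts of the neighbours cno and Alg12.

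The strongest unthresholded sites were just below the threshold. At Rpn8, a lid subunit, the site had rank 6525 and lay nearest to a start of Slik, with ranks of 3302, 9902 and 15822 in replicates 1, 2 and 3. At Rpt5 it was 8 bp upstream of the start, with rank 6582 and ranks of 8070, 4385 and 8640. The pooled signals of these sites, 225 and 224, stood beside 239 at Rpt2 and 242 at Prosalpha6 just inside the list, so these genes are split by small differences in signal.

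The Prosalpha4 site had rank 6715 and lay 279 bp upstream, nearest to a start of kat80. That of Prosbeta3 had rank 6756 and lay 114 bp upstream. Rpn7 and Prosalpha7 followed with rank 7909, 10 bp upstream, and 8370, 80 bp upstream. Down to rank 14173, within which the strongest unthresholded sites were named, there were also Prosbeta2R2 (rank 10194), Prosbeta6 (12282), Prosalpha2 (12357), Rpt4 (12396) and Rpt6R (13926). Of these, the Prosbeta2R2 site lay nearest to a start of cno and the Rpt4 site to one of mldr. The sites of Prosbeta7, Rpt3R, Rpt6 and Prosbeta4 were weaker still. At 10 of the 15 genes all 3 replicate lists held a peak within 200 bp of the strongest weak site.

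No pooled summit lay at 16 members (33.3%), beside 34.4% of all protein-coding genes and 36.7% of those in the length range. Among the standard subunits these were Prosalpha1, Prosalpha3 and Prosbeta2. The other 13 were copies: Prosalpha1R, Prosalpha3T, Prosalpha4T1, Prosalpha4T2, Prosalpha6T, Prosbeta2R1, Prosbeta4R1, Prosbeta4R2, Prosbeta5R1, Prosbeta5R2, Rpn13R, Rpt4R and Rpn12R. For 2 of the 16 members the absence cannot be read. Prosalpha1 and its copy Prosalpha1R lie close together on 2R, and 87% and 99.2% of the 31-base words in these genes and 1000 bp around them occur elsewhere in the genome too, against at most 10.4% for any other member. How reads that map to several places were treated is not given in the sources used here. Without this pair, 17 of 46 members (37%) and 0 of 15 copies had a thresholded summit. Sem1, the orthologue of the lid subunit Rpn15, does not have a symbol of this form and is not a member; it had 1 thresholded summit, of rank 4026.

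Genes that act with the proteasome were taken from a separate list of 24 symbols, of which 23 were matched. A thresholded summit was at 14 of these (60.9%, 38.5 to 80.3), beside 37.1% of all protein-coding genes. The median length of the listed genes was 2773 bp, beside 2164 bp, and no share over genes of like length was computed. With summits up to 5000 bp away counted, the share was 60.9% beside 59.2%. The strongest was at TER94, the p97 ATPase that extracts ubiquitinated proteins, 168 bp upstream of the start, with rank 12 and ranks of 14, 12 and 12 in the replicates. Keap1, the inhibitor of the transcription factor Cnc, had one of rank 1147, nearest to a start of its neighbour kuk. At Pomp, a chaperone of core particle assembly, the summit was 139 bp upstream with rank 1710.

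The ubiquitin-conjugating enzyme gene eff had 3 summits, the strongest with rank 2068, and the polyubiquitin gene Ubi-p63E had 1 of rank 2214, nearest to a start of Ccz1. Uch-L5, a deubiquitinase bound to the base through Rpn13, had one 5 bp upstream of its start with rank 2741 and ranks of 2684, 2367 and 4069. These 6 sites had better ranks than the members' median of 4018, which the choice of the strongest fixes in part, and 1 of them, at TER94, had the consensus with 1 mismatch. Of the 23 matched genes, 9, among them Usp14, PI31, Uba1 and maf-S, had unthresholded summits only, beside 28.5% of all protein-coding genes. None of the 23 was without a pooled summit, beside 34.4% of all protein-coding genes. Here too no share over genes of like length was computed.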

How the data were processed

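The members, subgroups and gene lists were chosen with earlier results of these data known. Deposited dm6 peak lists were read: 1 per replicate, called per sample, and a pooled and an IDR-thresholded list made from all 3. The signal is the peak caller's own value as deposited, with no stated scale; ranks within a list were used. The deposited column of −log10 q-values was not used for ranking, since 4732 of the 6127 thresholded peaks share its highest value. The peak caller, the aligner and the number of reads were not stated in the labels or files. The lists in the dm3 build were not used, and no coordinates were converted.

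Genes came from Ensembl release 115 (Release 6 of the genome, dm6 coordinates), sequences and descriptions from RefSeq's copy of Release 6; no pooled peak lay beyond a chromosome's end. A summit counted for a gene when in its body or within 1000 bp. Replicate peaks matched within 200 bp, the strongest taken. Ufd1-like was looked up under its current name, and Ecm29 was unmatched. Every member was named, unthresholded ones by rank; of the other genes, the 6 with the strongest summit. With 1 group there was no contrast and no test; shares have exact (Clopper-Pearson) 95% intervals, for counting error only, and genes and peaks are not independent. The functions were tested on simulated data. Python 3.11.15, numpy 2.4.6, pandas 2.3.3, scipy 1.17.1 and matplotlib 3.10.9 were used. Alternatives changed the flank, peak set, gene assignment, promoter and motif windows and matching distance. They also asked for matching peaks in only 2 replicates, setting aside each in turn, without calling the thresholded list anew. Merging summits within 500 bp and leaving out repeated genes were chosen after seeing the data.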

Additional observations from a re-analysis of the deposited data

How the results depend on the processing

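Of 96 alternative values, 55 stayed within 1.5 times of the reported count and 41 moved further; where they moved, the cause was not tested beyond the smaller or larger window or peak set itself. The share of all protein-coding genes under each setting is given as the background. With no flank, 6 members (12.5%, background 14.3%) had a thresholded summit (1 core, 5 regulatory, 6 standard subunits), as did 4 other pathway genes, and 4 members had unthresholded summits only (8.33%, background 24.5%). With 2000 bp, 9 core genes and 1 copy had one (36% and 6.25%, background 44.2%). Among standard subunits alone, 9 of 14 core genes (64.3%) and 15 of 18 regulatory genes (83.3%) then had one. The standard core share was thus below its background at 1000 bp (28.6%, background 37.1%) and above it with 2000 bp and 5000 bp. With 5000 bp, 30 members did (62.5%, background 59.2%), of which 12 core, 27 standard subunits and 3 copies. The strongest 3063 peaks left 7 members (14.6%, background 21.8%), of which 1 core, 6 regulatory and 7 standard (21.9%), and 7 other pathway genes (30.4%). Peaks top-ranked in all replicates left 8 members (16.7%, background 28.6%), of which 1 core, 7 regulatory and 8 standard. Giving each summit to its nearest start left 10 (20.8%, background 24.2%), of which 2 core, 8 regulatory and 10 standard. Thresholded peaks top-ranked in 2 replicates, with each replicate set aside in turn, left 10 to 11 members (background 30.3% to 31.1%). Core genes then ranged from 1 to 2, regulatory genes from 8 to 9 and standard subunits from 10 to 11. Members with a summit in their own promoter ranged from 8 to 9 (background 20.4% to 21.1%). The main counts had no such filter, and the thresholded list itself was made from all 3 replicates. The consensus was at 0 member summits with no mismatch (background 7.05% of thresholded summits) and at 2 with a window of 200 bp (27%). In the whole replicate lists, 23 of the 24 summits had a peak in all 3 (97.2% of thresholded summits). The share of standard regulatory genes with a summit was above that of standard core genes under each flank, peak set and assignment, closest with 5000 bp (88.9% and 78.6%). Merging summits within 500 bp, chosen after seeing the data, left 17 members, with 21 sites in place of 24 summits, of which 9 (42.9%, background 70.1%) were top-ranked in all replicates. No paired analysis was possible because there was 1 group. Depth is unknown, so a missing peak does not show that binding was absent.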
